A study of Caenorhabditis elegans with 12 samples.

Results

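The mir-72 family of Caenorhabditis elegans comprises the microRNA genes mir-72, mir-73 and mir-74. All rows of the deposited count table whose names begin with miR-72, miR-73 or miR-74 were taken, which gave 6 mature arms of 213 measured, both arms of each of the 3 genes. The files name them with a species prefix, as in cel-miR-72-5p and cel-miR-74-3p, which is left out from here on. Small RNA from whole worms was sequenced in 4 groups of 3 libraries, which were wild-type N2 and the strain MT12993, carrying the deletion allele mir-71(n4115), each at day 0 and at day 5 of adulthood. Worms of all groups were kept at 20 °C and moved, around the last moult, to plates with 0.1 mg/mL 5-fluorodeoxyuridine, which blocks DNA synthesis and so stops progeny from developing. Each mutant library came from this one strain, so that the allele and the strain's other background cannot be told apart. In whole worms, a change in the number of cells that make a microRNA and a change in its amount per cell cannot be told apart either.

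A microRNA precursor is a hairpin whose arms yield a duplex. One strand, the guide, is kept by an Argonaute protein and directs it to messenger RNAs through the seed near its 5′ end, and the passenger strand is mostly discarded. The members of the mir-72 family are grouped because their guides share a seed, which is also that of miR-31 in flies and mammals. The arm with the higher mean over the 12 libraries is called the guide here. This is the 5p arm for mir-72 and the 3p arm for mir-73 and mir-74, and it was also the higher arm in each single library. The comparisons address how the strands of these genes stand in young and older adults, and in worms with and without mir-71, which worms need for a normal lifespan.

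In the Ensembl annotation of WBcel235, the build named in the submitters' processing notes, mir-72 lies on chromosome II at 2452838 to 2452936 on the plus strand, between protein-coding genes and 33 bases before pqn-42, which is on the opposite strand. mir-73 lies on chromosome X at 2368765 to 2368863 on the plus strand, with no other annotated gene over it. mir-74 follows 179 bases downstream on the same strand, at 2369043 to 2369139, so that mir-73 and mir-74 are close neighbours while mir-72 is on another chromosome. Exons of 2 non-coding RNA genes overlap mir-74, T24D8.14 on its own strand and T24D8.16 on the opposite strand. As annotated, the guides are 23 bases long for miR-72-5p and miR-73-3p and 22 bases for miR-74-3p. The sources used here do not give whether reads were assigned by strand or how reads fitting more than one microRNA were treated. Outside the family, miR-44-3p and miR-45-3p had equal values in every library, and both were kept among the 213 microRNAs and in the library totals.

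The libraries held between 917170 and 4070663 reads over the measured microRNAs, as recovered from the steps of the normalised values. miR-71-5p, the guide of the deleted gene, stood at 90221 to 173431 normalised reads in the 6 N2 libraries and at 52.5 to 189 in the 6 mutant libraries, so that each library matched its strain label. miR-71-3p was at 0 in the 6 mutant libraries. The day labels are not checked by this, since miR-71-5p overlapped between the days in N2. The authors' scaling left libraries at different overall levels, with totals from 1276414 to 5021422 normalised reads and the highest total in mutant replicate 1 of day 5. Levels are therefore also given as shares of the library and as ratios between strands of the same library, which do not depend on that scaling.

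miR-72-5p was the main product of the family, and it rose with age in mir-71 mutants. In N2 at day 0 it stood at 40144, 33360 and 29729 normalised reads in replicates 1 to 3, and in N2 at day 5 at 56850, 42067 and 56907. In the mutants it stood at 84596, 18171 and 45667 at day 0 and at 230387, 95615 and 116886 at day 5. The 3 mutant libraries of day 5 were above the other 9 libraries, while the mutant libraries of day 0 spanned both N2 groups, with replicate 2 the lowest of all 12. The group means were 34411 ± 5287 and 51941 ± 8551 in N2 and 49478 ± 33376 and 147629 ± 72455 in the mutants (SD, n = 3 in each group). Its mean over the 12 libraries ranked 7 among the 213 microRNAs. The 2 middle means, N2 at day 5 and mutants at day 0, differed by less than the spread within the mutants.

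Between day 0 and day 5 in the mutants, miR-72-5p rose by 1.73 ± 0.52 on the log2(value + 1) scale (SE, limma adjusted p = 0.037), which is 3.32-fold. Of the 6 arms it was the only one called there, as against 29 of 213 microRNAs in either direction (13.6%), 21 of them higher (9.86%) and 8 lower (3.76%). With the replicate number as a block 67 were called, and the split became 24 higher and 47 lower with equal totals and 25 higher and 32 lower with TMM (trimmed mean of M-values). The median change of all 213 was 0.28, and relative to it miR-72-5p had 1.45. It was called under each of the 4 other scalings (1.11 to 1.63). By limma, the call was lost on omitting day 0 mutant replicate 2 (adjusted p = 0.129) or 3 (0.0854), day 5 mutant replicate 1 (0.105) or 3 (0.0782), day 0 N2 replicate 2 (0.0516) or 3 (0.0535), or day 5 N2 replicate 3 (0.0519). With the 2 mutant groups fitted alone the adjusted p was 0.21.

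In N2, the 3 libraries of day 5 also lay above those of day 0, but the log2 change of 0.59 ± 0.52 did not pass (limma adjusted p = 0.425, 95% interval −0.51 to 1.69). Scaling by TMM or by library medians gave 1.14 and 1.13 and called it (limma adjusted p = 0.0162 and 0.0139). Equal totals gave 0.60 and did not call it (limma adjusted p = 0.105). Nor did equal totals of the rest, leaving out mir-71 and the 5 most abundant microRNAs (0.53, limma adjusted p = 0.174). The median change of all microRNAs in N2 was −0.48. The age changes of the strains differed by 1.14 ± 0.73, which was not called (limma adjusted p = 0.534, interval −0.41 to 2.70). At day 5 miR-72-5p did not overlap between the strains, at a log2 difference of 1.41 ± 0.52 (limma adjusted p = 0.0549). With the replicate number as a block this difference was called (limma adjusted p = 0.00425). On omitting day 0 mutant replicate 1 (adjusted p = 0.0328) or 2 (0.019), or day 5 mutant replicate 2 (0.0353), limma called it as well. So it did with the filter at a mean of 50 (adjusted p = 0.0492) and in the deposited log2 values (0.0469), but under none of the 4 other scalings (0.36 to 0.74). At day 0 the difference was 0.27 ± 0.52 (limma adjusted p = 0.966, interval −0.83 to 1.37).

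**Figure D1:**
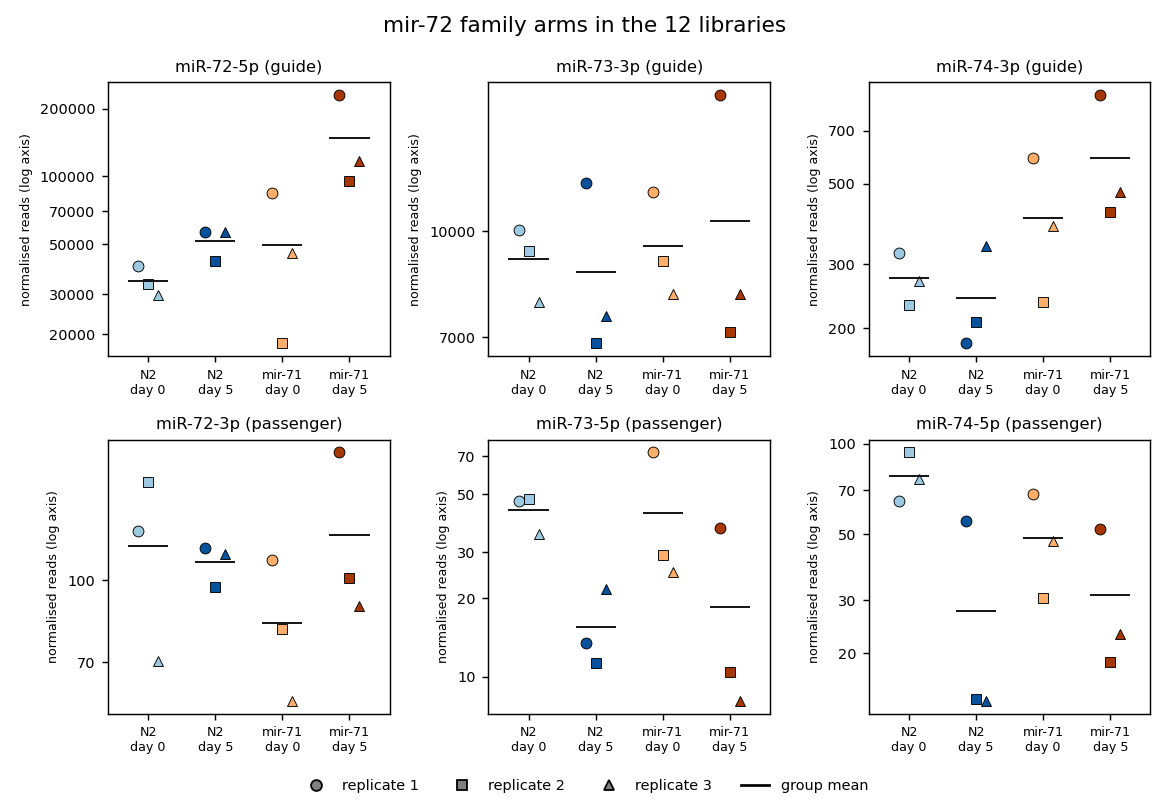
Normalised reads (log axes that differ between panels) of the 3 guide strands (top) and the 3 passenger strands (bottom) in each of the 12 libraries, by group, with the group mean as a line. miR-72-5p is highest in the 3 mutant libraries of day 5 (95615 to 230387), and miR-73-5p in N2 lies between 35.1 and 48.0 at day 0 and between 11.3 and 21.6 at day 5.

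As a share of all measured microRNA reads, miR-72-5p varied less within each group. It made up 1.71%, 2.10% and 1.89% of the N2 libraries of day 0 and 2.67%, 3.15% and 2.80% of those of day 5. In the mutants the shares were 2.80%, 1.42% and 2.30% at day 0 and 4.59%, 5.11% and 4.69% at day 5. The group means were thus 1.90% ± 0.192 and 2.87% ± 0.245 in N2 and 2.17% ± 0.695 and 4.80% ± 0.278 in the mutants (SD, n = 3 in each group). The shares of day 5 were above those of day 0 in each strain without overlap, and the mutants of day 5 were above N2 of day 5, a difference that limma did not call with equal totals (log2 0.74, adjusted p = 0.0853). The coefficient of variation of its normalised level among the day 5 mutants was 49.1%, and replicate 1 of that group had both the highest total and the highest level of miR-72-5p but the lowest of the 3 shares.

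All 6 arms together made up 2.44% ± 0.277 and 3.38% ± 0.269 of the N2 libraries at day 0 and day 5, and 2.70% ± 0.521 and 5.16% ± 0.317 of the mutant libraries (SD, n = 3 in each group). Of this family sum, miR-72-5p accounted for 77.1% to 79.1% in N2 at day 0 and 82.4% to 87.7% at day 5. In the mutants it accounted for 87.3%, 65.8% and 84.1% at day 0 and for 92.6% to 93.1% at day 5. Nearly all of the rest was miR-73-3p, whose part was lowest in day 5 mutant replicate 1 (6.41%) and highest in day 0 mutant replicate 2 (32.8%).

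**Figure D2:**
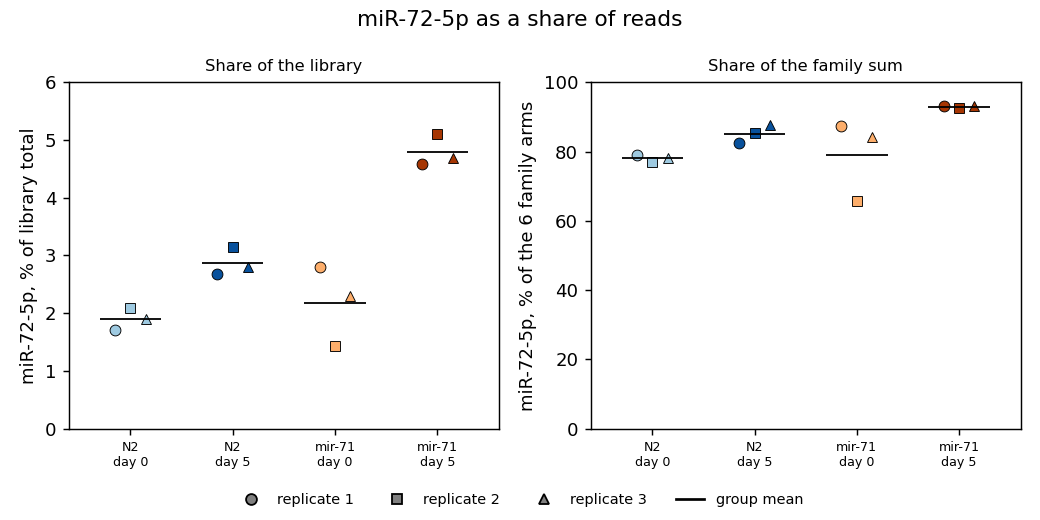
Share of miR-72-5p in the total of all measured microRNAs (left, percent) and in the sum of the 6 family arms (right, percent), one point per library, with the group mean as a line. The mutant libraries of day 5 lie together at 4.59% to 5.11% of the library and at 92.6% to 93.1% of the family.

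miR-73-3p, the second most abundant strand of the family (rank 34 of 213), did not differ detectably in any comparison. In N2 it stood at 10056, 9368 and 7888 normalised reads in young adults and 11789, 6854 and 7514 at day 5. In the mutants the values were 11423, 9047 and 8091 at day 0 and 15849, 7115 and 8089 at day 5. The 4 groups overlapped throughout, and the group means were in the order mutants day 5, mutants day 0, N2 day 0 and N2 day 5, with no neighbours apart by more than their spread. The log2 change with age was −0.10 ± 0.40 in N2 (limma adjusted p = 0.889, 95% interval −0.96 to 0.76) and 0.04 ± 0.40 in the mutants (limma adjusted p = 0.946, interval −0.82 to 0.90). The sign of both turned under other scalings.

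miR-74-3p, the guide of the neighbouring gene, was far scarcer (rank 81 of 213) and was higher in mutants than in N2 at day 5. In N2 it stood at 321, 232 and 270 normalised reads in young adults and 181, 208 and 335 at day 5. In the mutants it stood at 587, 237 and 381 at day 0 and at 878, 418 and 473 at day 5. The mutant libraries of day 5 were above all 6 N2 libraries, and those of day 0 overlapped with every group. The day 5 mutants exceeded N2 of that age by 1.26 ± 0.44 on the log2 scale (limma adjusted p = 0.0482), which is 2.39-fold.

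At that age limma called 48 of 211 microRNAs other than mir-71 higher in the mutants (22.7%) and 0 lower, or 95 higher and 1 lower with the replicate number as a block. The median difference of all of them was 0.98, so that miR-74-3p stood only 0.27 above it and miR-72-5p 0.43. Under the 4 other scalings this median lay between −0.061 and 0.32, and the split of calls ran from 23 higher and 5 lower (equal totals) to 9 higher and 12 lower (TMM). Under each of these, miR-74-3p lost its call (0.20 to 0.58, limma adjusted p from 0.202 to 0.692), as it did with the 2 groups fitted alone (0.0622) and without the intensity trend (0.0628). It was also lost on omitting day 0 N2 replicate 1 (0.0629), 2 (0.0696) or 3 (0.0686), day 5 N2 replicate 1 (0.134) or 2 (0.149), day 0 mutant replicate 3 (0.0703), or day 5 mutant replicate 1 (0.197) or 3 (0.0724). As a share of the library, miR-74-3p of day 5 made up 0.0135% ± 0.00437 in N2 and 0.0196% ± 0.00249 in the mutants (SD, n = 3 each). Mutant shares of 0.0175% to 0.0224% lay above N2 shares of 0.00853% to 0.0165%. The N2 totals include miR-71-5p, however, at 5.45% to 6.75% of these libraries, against 0.00206% to 0.0101% in the mutants. Its presence in the totals lowers the N2 shares beside those of the mutants. Whether the shares separate with mir-71 left out of the totals was not tested.

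**Figure D3:**
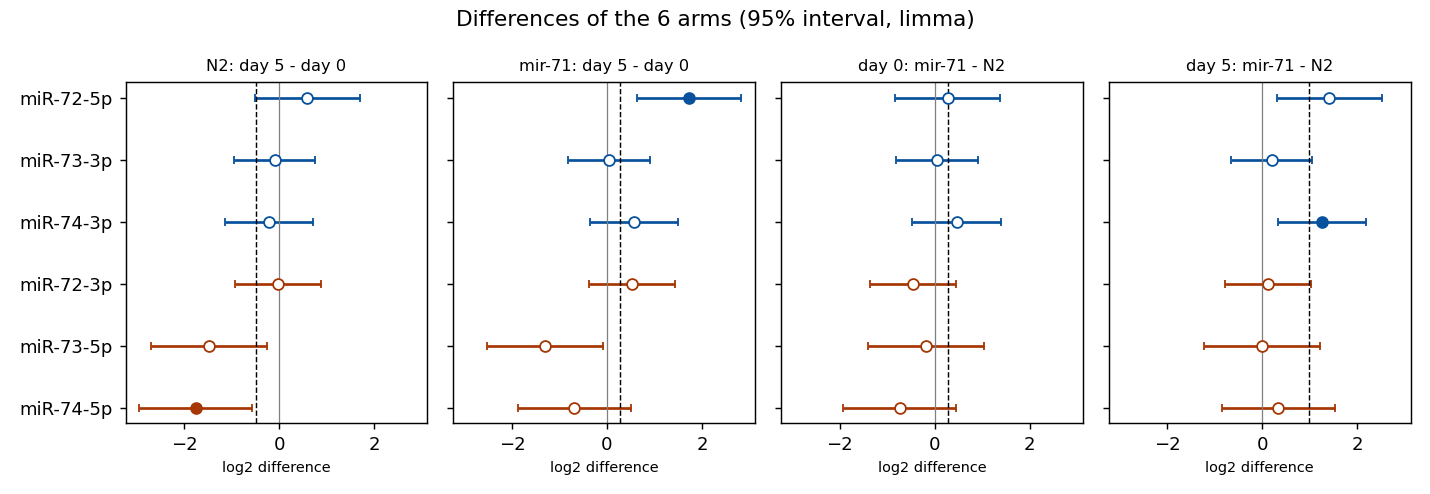
Log2 differences of the 6 arms in the 4 comparisons, with 95% intervals from limma, guides in blue and passengers in brown. Filled points passed at an adjusted p under 0.05 (miR-74-5p in N2 with age, miR-72-5p in mutants with age and miR-74-3p between strains at day 5), and the dashed line marks the median of all microRNAs, which is 0.98 at day 5.

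Among the passenger strands, miR-74-5p fell with age in N2. It stood at 64.5, 93.7 and 76.6 normalised reads at day 0 and at 55.1, 14.1 and 13.8 at day 5. Each library of day 5 was below each of day 0, with replicate 1 the nearest. The log2 change was −1.75 ± 0.56 (limma adjusted p = 0.037), against a background of 50 of 213 microRNAs called in N2 in either direction (23.5%), 34 of them lower (16%) and 16 higher (7.51%), which became 32 lower and 39 higher with TMM. It was the only one of the 6 arms called with age in N2, and it was also called under each of the 4 other scalings. The call was lost on omitting day 0 N2 replicate 1 (limma adjusted p = 0.0516), 2 (0.122) or 3 (0.0828), day 5 N2 replicate 2 (0.148) or 3 (0.109), day 0 mutant replicate 3 (0.0519) or day 5 mutant replicate 3 (0.055).

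In the mutants miR-74-5p stood at 67.8, 30.6 and 47.4 normalised reads at day 0 and at 51.8, 18.7 and 23.3 at day 5. These groups overlapped, with a log2 change of −0.69 ± 0.56 (limma adjusted p = 0.383), and limma called it lower under 2 of the 4 other scalings.

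In N2, miR-73-5p stood at 47.1, 48.0 and 35.1 normalised reads in young adults and 13.5, 11.3 and 21.6 at day 5, again without overlap. In the mutants it stood at 72.4, 29.2 and 25.3 at day 0 and at 37.0, 10.4 and 8.05 at day 5, where only replicate 1 of day 5 reached into the range of day 0. The log2 changes were −1.47 ± 0.58 in N2 (limma adjusted p = 0.0699) and −1.30 ± 0.58 in the mutants (limma adjusted p = 0.141), and neither passed. With the replicate number as a block the mutant change was called (limma adjusted p = 0.0385), and it was also called on omitting day 5 mutant replicate 1 (−1.93, adjusted p = 0.0278) and under each of the 4 other scalings (−1.88 to −1.39). The N2 change was called with equal totals (limma adjusted p = 0.00447), over the rest (0.00383), with the N2 groups fitted alone (0.0182) and on omitting day 5 mutant replicate 1 (0.0273). The counts behind this strand were small, with the fewest in day 5 mutant replicate 3 (9 reads, 95% Poisson interval 4.12 to 17.1) and the most in day 0 mutant replicate 1 (80 reads, 63.4 to 99.6).

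The third passenger, miR-72-3p, was the most abundant of the 3 and overlapped between groups in all comparisons. It stood at 124, 154 and 70.2 normalised reads in N2 at day 0, at 115, 97.3 and 112 in N2 at day 5, at 109, 80.7 and 59.0 in mutants at day 0 and at 175, 101 and 89.5 in mutants at day 5. Its log2 changes with age were −0.03 ± 0.43 in N2 and 0.53 ± 0.43 in the mutants (limma adjusted p = 0.961 and 0.377). At day 0, limma called 0 of 211 microRNAs between the strains (background 0%), and 5 had an unadjusted p under 0.05, none of them in the family. Counting arms whose groups did not overlap, 1 of the 6 was higher and 2 were lower with age in N2 (background 12.2% and 34.7%). With age in the mutants, 1 was higher (background 18.3%) and 0 lower (8.45%). Between strains, 2 were higher in the mutants at day 5 (background 41.2%) and 0 lower (0.474%), and at day 0 there were 0 in either direction (3.32% and 1.42%). The median log2 change of the 6 arms, beside that of all microRNAs tested, was −0.16 beside −0.48 with age in N2, 0.29 beside 0.28 with age in the mutants, −0.063 beside 0.27 between strains at day 0 and 0.27 beside 0.98 at day 5.

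In both strains, mir-73 had more guide for each passenger read at day 5 than at day 0. In N2 at day 0 there were 213, 195 and 225 reads of miR-73-3p for each read of miR-73-5p, and at day 5 there were 875, 609 and 348. In the mutants the ratios were 158, 310 and 320 at day 0 and 428, 685 and 1005 at day 5. The 3 libraries of day 5 were above those of day 0 in each strain. The same held in both strains for 11 of the 62 genes with both arms measured, mir-72 and mir-73 among them. The mean log2 ratio, with 1 added to each value, was higher with age, 7.69 ± 0.10 against 9.06 ± 0.65 in N2 and 7.93 ± 0.56 against 9.27 ± 0.55 in the mutants (SD, n = 3 in each group). The differences of 1.37 and 1.34 gave p = 0.1 in two-sided exact permutation tests, the smallest p that 3 against 3 libraries allow (0.2 adjusted over the 4 comparisons).

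The strains did not separate in this ratio at day 0 (0.24, exact permutation p = 0.4) or at day 5 (0.21, exact permutation p = 0.7). Put as a share of the reads of both arms, miR-73-5p made up 0.509% in replicate 2 of N2 at day 0 (exact 95% binomial interval 0.369 to 0.686) and 0.114% in replicate 1 of N2 at day 5 (0.057 to 0.204). In the mutants the extremes were 0.629% in day 0 replicate 1 (0.499 to 0.783) and 0.0994% in day 5 replicate 3 (0.0455 to 0.189).

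The other precursors also had higher mean ratios at day 5. For mir-72 there were 324, 217 and 423 reads of miR-72-5p for each read of miR-72-3p in N2 at day 0 and 494, 432 and 506 at day 5. In the mutants there were 773, 225 and 774 at day 0 and 1315, 944 and 1306 at day 5. Again the libraries of day 5 were above those of day 0 in both strains, and at day 5 the mutants were above N2. The log2 ratio of mir-72 differed with age by 0.62 in N2 and 1.20 in the mutants and differed by 1.30 between strains at day 5 (exact permutation p = 0.1 for each, 0.133 adjusted over the 4 comparisons). Without day 0 N2 replicate 2 the N2 value was 0.37, and without day 0 mutant replicate 2 the mutant value was 0.61.

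mir-74 was the least one-sided precursor, with 4.98, 2.48 and 3.52 reads of miR-74-3p for each read of miR-74-5p in N2 at day 0 and 3.29, 14.8 and 24.2 at day 5. The N2 groups overlapped through replicate 1 of day 5 (log2 difference 1.53, exact permutation p = 0.3). In the mutants the ratios were close together, at 8.65, 7.73 and 8.04 at day 0 and 17.0, 22.4 and 20.3 at day 5, a log2 difference of 1.26 (exact permutation p = 0.1, 0.2 adjusted over the 4 comparisons). At day 0 the mutants were above N2 without overlap, at a log2 difference of 1.20 (exact permutation p = 0.1, 0.2 adjusted over the 4 comparisons). Among 61 genes other than mir-71, such a separation at day 0 was found upward in 3.28% and downward in 4.92%, and at day 5, where mir-72 had it, upward in 18% and downward in 11.5%.

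**Figure D4:**
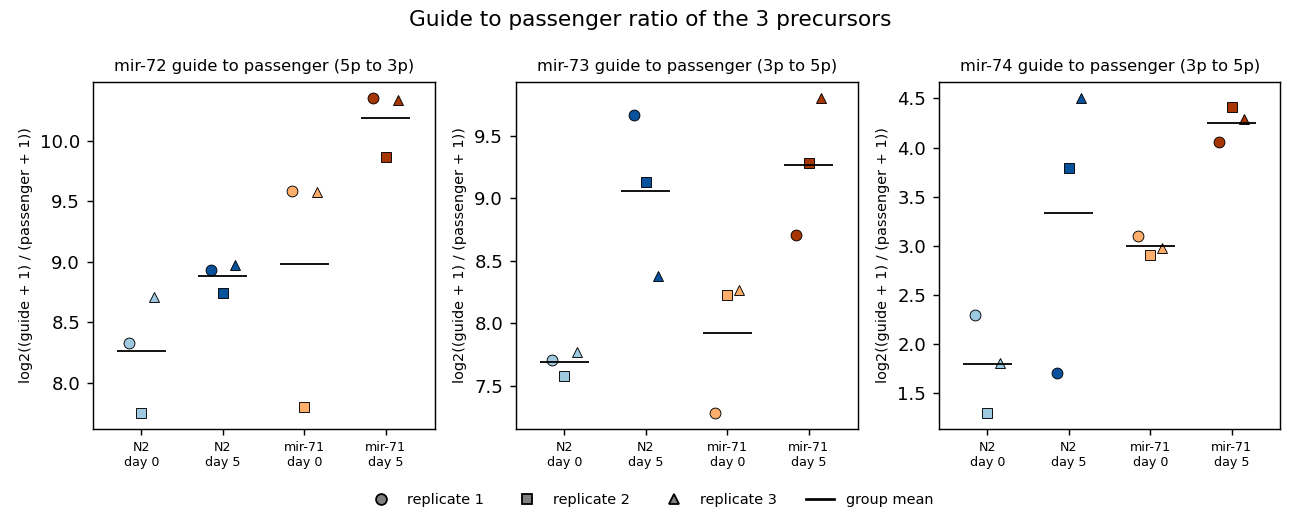
Log2 ratio of guide to passenger for mir-72, mir-73 and mir-74 in each of the 12 libraries, with the group mean as a line and axes that differ between panels. In mir-73 the day 5 libraries lie above the day 0 libraries of their strain, with means of 7.69 and 9.06 in N2 and 7.93 and 9.27 in mutants.

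Other genes also differed in this way among the 62 with both arms measured. In each gene the arm with the higher mean was taken as the guide, which need not be the strand that is kept. For mir-41 it was the 5p arm, and its ratio was lower with age in both strains. For its relatives mir-36, mir-37, mir-39 and mir-40 it was the 3p arm, and their ratios were higher. With age, the ratio of guide to passenger was higher without overlap in 14 genes in N2 (22.6%) and in 21 in the mutants (33.9%), and lower without overlap in 8 in each strain (12.9%). mir-72 and mir-73 were among the 14, and mir-72, mir-73 and mir-74 among the 21. The median change was 0.41 in N2 and 0.43 in the mutants, and mir-73 ranked 11 and 12 from the top. When the log2 ratios of the 62 genes were fitted together in limma, an analysis added after the values were seen, 8 genes in N2 (12.9%) and 7 in the mutants (11.3%) passed with age, as did 1 gene between strains at day 5 (1.64%) and 0 at day 0.

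In that fit, none of the 3 genes passed in any comparison. With age, for mir-73 the adjusted p was 0.0595 in N2 and 0.0609 in the mutants, for mir-74 it was 0.0806 and 0.136, and for mir-72 it was 0.378 and 0.0889. With the replicate number as a block, mir-72 passed in the mutants (limma adjusted p = 0.0351). On omitting 1 library, limma called mir-73 in N2 without day 5 N2 replicate 3 (adjusted p = 0.0385) or day 0 mutant replicate 2 (0.0381), and in the mutants without day 5 N2 replicate 1 (0.047). Without day 5 N2 replicate 1 it also called mir-74, in N2 (log2 2.35, 0.00263) and in the mutants (0.0304), and without day 0 mutant replicate 2 it called mir-72 between strains at day 0 (1.32, 0.0447) and at day 5 (0.0408). The age differences of mir-73 in the strains were apart by −0.032 ± 0.66 (limma adjusted p = 0.9996, 95% interval −1.45 to 1.38).

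**Figure D5:**
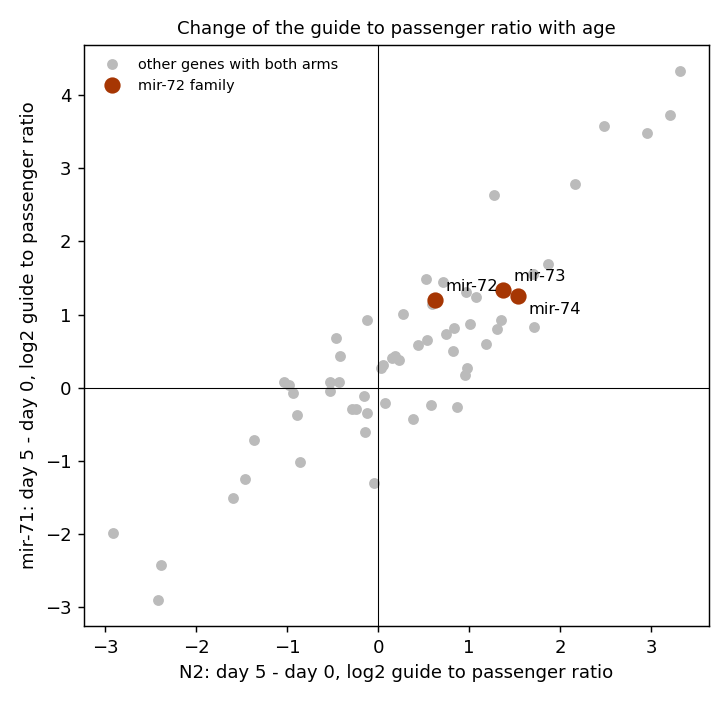
Change of the log2 ratio of guide to passenger between day 5 and day 0 in N2 (horizontal) and in mir-71 mutants (vertical) for the 62 genes with both arms measured, with the mir-72 family in brown. The family lies in the upper right quadrant, at 0.62 to 1.53 in N2 and 1.20 to 1.34 in mutants, among other genes.

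miR-72-5p was also set against the other guides of its family. For each read of miR-74-3p there were 110 to 144 reads of miR-72-5p in N2 at day 0 and 170 to 314 at day 5. In young mutants the range was 76.8 to 144, and in day 5 mutants 229 to 262. This log2 ratio differed with age by 0.81 in N2 and 1.16 in the mutants, without overlap in either (exact permutation p = 0.1 for each, 0.2 adjusted over the 4 comparisons), and between strains by −0.19 at day 0 and 0.16 at day 5 (exact permutation p = 0.7 and 0.6).

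The guides of the neighbouring genes mir-73 and mir-74 differed in level by 29.2-fold to 40.4-fold in N2 at day 0 and by 22.4-fold to 65.0-fold in N2 at day 5. In the mutants miR-73-3p exceeded miR-74-3p by 19.5-fold to 38.2-fold at day 0 and by 17.0-fold to 18.0-fold at day 5. At day 5 this log2 ratio was lower in the mutants without overlap, at a difference of −1.06 (exact permutation p = 0.1, 0.2 adjusted over the 4 comparisons). With age it differed by 0.12 in N2 (exact permutation p = 0.8) and −0.53 in the mutants (exact permutation p = 0.1, 0.2 adjusted). How often ratios between other guides separate in this way was not examined. These ratios count reads of mature strands of nearly equal length, and ligation and amplification can favour one sequence over another.

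The microRNAs with the most similar patterns were sought by the root mean square difference of log2 values over the 12 libraries, each microRNA centred on its own mean. Closest to miR-72-5p were miR-246-3p (0.28), miR-5551-5p (0.33), miR-77-3p (0.36), miR-63-3p (0.37) and miR-1829a-5p (0.39), where the median over all other microRNAs was 0.93. miR-246-3p had group means of 11616 and 20746 normalised reads in N2 at day 0 and day 5 and of 18995 and 56861 in the mutants, the same order of groups as for miR-72-5p.

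Closest to miR-73-3p were miR-82-3p (0.26), miR-57-5p (0.30), miR-1-5p (0.30), miR-54-3p (0.30) and miR-87-3p (0.31), and the median was 0.77. miR-73-3p itself varied little, with a root mean square of 0.34 about its own mean. A flat profile would thus be hardly farther from it than these microRNAs, and their closeness shows little of a shared pattern. The same measure was 0.95 for miR-72-5p and 0.63 for miR-74-3p. Closest to miR-74-3p were miR-47-5p (0.20), miR-242 (0.24), miR-1822-3p (0.25), miR-232-3p (0.26) and miR-229-5p (0.26), with a median of 0.70. The guides of the family were not among each other's nearest, since miR-72-5p and miR-74-3p were apart by 0.57, miR-73-3p and miR-74-3p also by 0.57, and miR-72-5p and miR-73-3p by 0.85.

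Markers of other tissues were also compared, since whole worms hold them all. The 8 microRNAs of the mir-35 family, which belong to germline and embryo, summed to 23098 to 97947 normalised reads in N2 at day 0 and 143403 to 238057 at day 5, and to 14147 to 154730 and 108135 to 346010 in the mutants. Of these, 4 rose in N2 and 2 in the mutants, beside 7.51% and 9.86% of all microRNAs, and 1 of the 8 was at 0 in at least 1 library of each day 0 group. The 4 nervous-system microRNAs summed to 1532 to 2006 in N2 at day 0, 607 to 722 in N2 at day 5, 1374 to 2664 in the mutants at day 0 and 1362 to 3292 at day 5. Of them, 2 fell in N2 with age, beside 16% of all microRNAs, and 3 were higher in the mutants at day 5, where 22.7% of all were called higher and none lower and the median difference was 0.98. The nervous-system marker lsy-6 was at 0 in 1 N2 library of day 5. The single markers of muscle and glia, miR-1-3p and miR-228-5p, passed in none of the 4 comparisons. The intestinal miR-60-3p was higher in mutants than in N2 at day 5 (2020 to 4945 against 620 to 1928 normalised reads). The part of these tissues in the levels of the mir-72 family was not tested.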

How the data were processed

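Small RNA libraries of 12 samples in 4 groups of 3 were used, with groups and replicate numbers from the sample titles. The series' design text calls the replicates biological, and the labels do not say whether they were separate cultures, so p-values measure the spread between these samples. Per the submitters' processing notes, STAR 2.4.0h and DESeq2 were used on WBcel235, while the sources used here give no counting rules. What the authors deposited are normalised read counts (signal values at or above 0) and a log2 version whose transformation is not stated and which served as an alternative.

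The deposited values of each library were multiples of a single step, taken as 1 read, for 100% of microRNAs at a tolerance of 0.001. That reading rests on the values alone, and read numbers and intervals depend on it and cover counting error only. For the tests, log2(value + 1) was fitted in limma 3.58.1 (R 4.3.3) over all 213 microRNAs and 4 group means, with an intensity trend, two-sided, with calls at p under 0.05 after Benjamini-Hochberg adjustment. A filter at a mean of 5 removed 0 microRNAs. Fold changes on this scale understate those of scarce strands. Counts between strains leave out both mir-71 arms. Each group enters both an age and a strain comparison, so these are not independent. Ratios of strands were compared with exact permutation tests over libraries, 24 in all. The guide is the arm with the higher mean.

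Between strains, libraries with the same replicate number deviated alike from their group means. Pearson's r across microRNAs was 0.248 to 0.569 at day 0 and 0.339 to 0.472 at day 5. With age in the mutants it was 0.111 to 0.37 for the same number. There, day 5 replicate 3 and day 0 replicate 1 had 0.273, so that the numbers pair those libraries less clearly. The replicate number was taken to pair libraries in these comparisons, which rests on these values alone. The main fit and the permutation tests did not use this pairing. Paired libraries allow fewer arrangements, so that a paired permutation test could not reach a p of 0.1. The block was fitted over all 4 groups at once. The fit with the block is given beside a result where it changes the call. With age in N2 the correlations were −0.02 to 0.125.

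The members and lists were chosen with earlier results of these data known. The rule named all arms of the 3 genes, the 5 microRNAs most like each guide and the marker lists. The fit was also run on simulated data with independent noise for each microRNA and changes placed in N2 at day 5 only. Those data held no differences in level between whole libraries and no shared replicate effect, so that the run does not bear on either.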

Additional observations from a re-analysis of the deposited data

How the results depend on the processing

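Read depth limits the passenger strands most, and scaling limits any statement on the direction of miR-73-3p and miR-72-3p. Scaling also turned the sign of some differences of miR-74-3p, miR-74-5p and miR-73-5p. The numbers of microRNAs called with age in N2 and in the mutants and between strains at day 5 (50, 29 and 48) became 26, 19 and 47 with a filter at a mean of 50, 94, 71 and 28 when totals were made equal, 91, 72 and 23 when the totals of the rest were (leaving out mir-71 and the 5 most abundant microRNAs), 71, 57 and 21 with the trimmed mean of M-values (TMM), 75, 75 and 29 with library medians, 79, 3 and 53 with the compared groups alone, and 86, 67 and 96 with the replicate block. With 1 library left out they ran from 10 to 67, 6 to 44 and 1 to 75. With age in N2, the count was 10 without day 0 N2 replicate 2, 26 without replicate 3 and 22 without day 5 N2 replicate 2. With age in the mutants it was 44 without day 0 mutant replicate 1, 14 without replicate 3 and 6 without day 5 mutant replicate 3. Between strains at day 5 it was 6 and 3 without day 5 N2 replicates 1 and 2, 75 without day 0 mutant replicate 2, and 1 and 25 without day 5 mutant replicates 1 and 3. At day 0, and for the difference between the age changes, limma called 0 under all alternatives. The compared groups alone give no test of that difference. In N2 the block, whose numbers do not pair those libraries, also called miR-73-5p (adjusted p = 0.0163).

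Directions that turned belonged to changes that had not been called. With age in N2, TMM and library medians gave 0.52 and 0.51 for miR-72-3p, 0.46 and 0.44 for miR-73-3p, and 0.33 and 0.32 for miR-74-3p. With age in the mutants, equal totals and equal totals of the rest gave −0.0022 and −0.082 for miR-72-3p and −0.50 and −0.58 for miR-73-3p, for which TMM and medians gave −0.28 and −0.060, and equal totals of the rest gave −0.046 for miR-74-3p. Between strains, in the order equal totals, equal totals of the rest, TMM and medians, miR-73-3p had −0.073, −0.077, −0.13 and −0.14 at day 0 and −0.48, −0.50, −0.86 and −0.65 at day 5. At day 5 miR-72-3p had −0.56, −0.57, −0.94 and −0.72 and miR-74-5p −0.31, −0.33, −0.68 and −0.47. miR-73-5p had 0.026 with a pseudocount of 5 and 0.023 in the deposited log2 values at day 5. For the difference of the age changes, miR-73-3p had −0.40, −0.42, −0.73 and −0.50, miR-73-5p −0.34, −0.35, −0.64 and −0.43, miR-72-3p −0.30 with TMM and −0.079 with medians, and miR-74-3p −0.077 with TMM. The cause was not tested.

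With 1 library left out, these ranges crossed 0. miR-73-3p had −0.34 to 0.055 with age in N2, −0.31 to 0.27 in the mutants, −0.082 to 0.17 between strains at day 0, −0.16 to 0.43 at day 5 and −0.22 to 0.38 for the difference of the age changes. miR-73-5p had −0.64 to 0.10 at day 0, −0.65 to 0.39 at day 5 and −0.46 to 0.63 for that difference. miR-72-3p had −0.35 to 0.21 with age in N2 and −0.18 to 0.30 at day 5, miR-72-5p −0.25 to 0.86 at day 0, and miR-74-5p −0.088 to 0.97 at day 5. Between strains at day 5, the mir-73 ratio ran from −0.13 to 0.51. The ratio of miR-73-3p to miR-74-3p ran from −0.29 to 0.47 with age in N2, and that of miR-72-5p to miR-74-3p from −0.39 to 0.067 between strains at day 0 and from −0.031 to 0.41 at day 5.

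With 1 library left out, the age difference of the guide-to-passenger ratio ran from 0.37 to 0.84 in N2 and 0.61 to 1.501 in the mutants for mir-72, from 1.07 to 1.71 and 1.02 to 1.62 for mir-73, and from 0.95 to 2.35 and 1.18 to 1.35 for mir-74. Between strains at day 5 it ran from 1.22 to 1.46 for mir-72 and from 0.10 (without day 5 N2 replicate 1) to 1.51 for mir-74. Over the total without mir-71 and the 5 most abundant microRNAs, the family made up 4.54% and 6.01% of N2 at day 0 and day 5 and 5.13% and 9.07% of the mutants. The list of most similar microRNAs cannot change with library medians, since a shift of a whole library cancels.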
